A study of Mus musculus with 8 samples.

Results

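The genes described here are 10 response genes of the ERK (extracellular signal-regulated kinase) pathway, namely Egr1, Fos, Jun, Ier3, Dusp4, Dusp6, Spry2, Spry4, Etv4 and Etv5. They were taken by gene name from an RNA-seq table of 18094 genes. All 10 were found once, and all were among the 15767 genes that were tested, those with 10 or more normalized counts on average. The libraries came from E14Tg2A, a mouse embryonic stem cell (mESC) line, either unedited (WT) or carrying a CRISPR/Cas9 point mutation that turns lysine 20 of the architectural protein CTCF into arginine (CTCF-K20R). On day 0 the cells were mESCs kept on mitomycin C-treated feeder fibroblasts in 15% serum with leukemia inhibitory factor (LIF, 1000 U/ml), 3 μM CHIR99021 and 1 μM PD0325901. On day 4 they were embryoid bodies (EBs), aggregates started from hanging drops of 1000 cells, in 15% serum with LIF left out. The labels do not say whether the inhibitors were carried into the EB medium. Each genotype and day had 2 libraries, 8 in all. The labels give the same protocols for both genotypes and do not say whether these were handled together. The labels do not tell how many CTCF-K20R clones were used, so genotype, clone and culture cannot be told apart.

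ERK is the last kinase of the RAS, RAF, MEK and ERK cascade, which growth factors such as the FGFs switch on. Active ERK phosphorylates transcription factors, and the genes transcribed next include the immediate early genes (Egr1, Fos, Jun, Ier3), the ETS factors of the PEA3 group (Etv4, Etv5), and inhibitors that act back on the cascade (the Dusp and Spry genes). PD0325901 blocks MEK, and with the GSK3 inhibitor CHIR99021 it makes up the 2i medium that holds mESCs in the naive state, from which FGF4 and ERK otherwise drive them.

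The total per library was between 19412659 and 21311513 normalized counts. The limit set at 3 reads was 2.49 to 3.45 normalized counts, and the 10 genes ranged from 48.5 to 12322, so none was near it. That limit covers counting error only. Between the libraries of a pair, the squared difference relative to that expected from independent reads averaged 0.31 (WT mESCs) and 0.273 (WT EBs), against 4.00 and 4.35 in the CTCF-K20R pairs. The WT libraries of a day, which differed by less than sampling noise, were averaged and counted as 1 sample, so that 6 samples were fitted. All errors therefore come from the CTCF-K20R pairs, and WT was assumed to vary like them. The study describes the libraries of a sample as independent experiments on biological replicates, while the WT pairs differed by less than sampling noise. Nothing in the labels says that the libraries of a pair came from separate cultures. The p-values therefore measure the spread between these libraries, which may be technical. A gene was called where its log2 fold change, on the scale of log2(normalized counts + 1), was above 1 or below -1 with an adjusted p under 0.05 (limma, Benjamini-Hochberg over the 15767 genes). Ctcf itself had a log2 fold change of 0.19 on both days (adjusted p = 0.0268 on day 4 and 0.055 on day 0, limma), and the point mutation cannot be read from gene-level values.

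**Figure D1:**
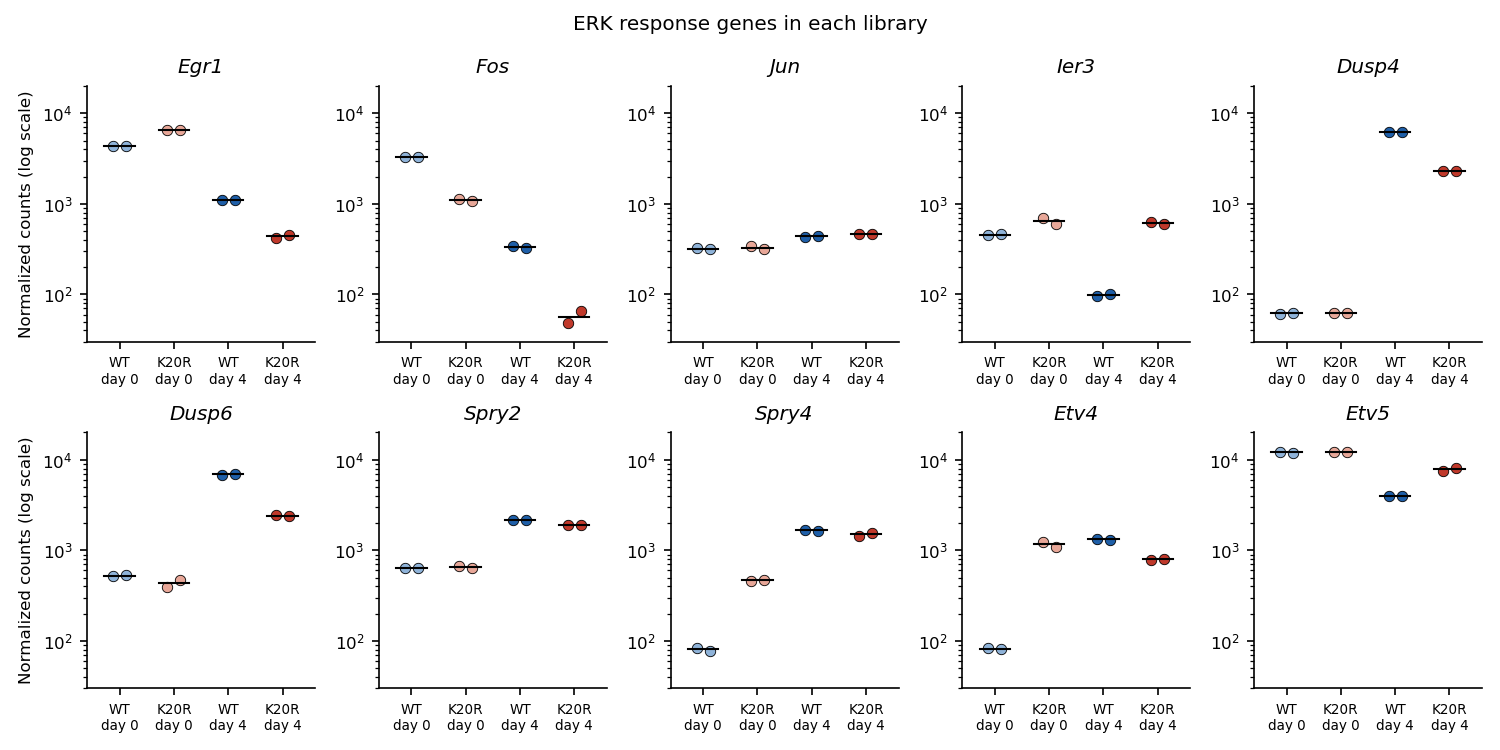
Normalized counts (log axis) of each of the 10 genes in each library, by genotype and day. Points are libraries and lines are the means of the 2 libraries of a group. Dusp4 sits near 62 in all 4 mESC libraries and between 2292 and 6253 in the EB libraries, while Fos goes from 3261 in WT mESCs down to 48.5 in CTCF-K20R EBs.

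Among the immediate early genes, Egr1 and Fos were higher in mESCs than in EBs in both genotypes, and both were lower in CTCF-K20R EBs than in WT EBs. Egr1, a zinc finger transcription factor, had 4352 and 4299 normalized counts in WT mESCs and 6611 and 6471 in CTCF-K20R mESCs. In EBs it had 1091 and 1099.6 in WT and 422.0 and 455.1 in CTCF-K20R. The genotypes did not overlap on either day, with CTCF-K20R above WT on day 0 and below it on day 4. The log2 fold change of CTCF-K20R against WT was 0.60 on day 0 (standard error 0.0665, adjusted p = 0.0058, limma), under the fold minimum, and -1.32 on day 4 (adjusted p = 0.00014). The difference between the genotype effects was -1.92 (standard error 0.0941, adjusted p = 0.000284). From day 0 to day 4, Egr1 fell by 1.98 on the log2 scale in WT and fell by 3.90 in CTCF-K20R.

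Fos, which pairs with Jun proteins to form the transcription factor AP-1, had 3261 and 3260.02 normalized counts in WT mESCs and 1132 and 1085 in CTCF-K20R mESCs. In EBs it had 339.6 and 324.3 in WT and 48.5 and 65.5 in CTCF-K20R. CTCF-K20R was below WT on both days without overlap. The log2 fold change was -1.56 on day 0 (standard error 0.19, adjusted p = 0.00735, limma) and -2.54 on day 4 (adjusted p = 0.00045). Their difference of -0.98 had an adjusted p of 0.0478 and a 95% interval from -1.66 to -0.31, and it was under the fold minimum. Between the days Fos fell by 3.29 on the log2 scale in WT and fell by 4.27 in CTCF-K20R.

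Jun, the AP-1 partner of Fos, had 324.0 and 314.9 normalized counts in WT mESCs, 338.5 and 317.2 in CTCF-K20R mESCs, 433.7 and 440.9 in WT EBs, and 461.5 and 459.0 in CTCF-K20R EBs. The genotypes overlapped on day 0, and the EB libraries were above the mESC libraries. For Jun, neither day passed the test of genotype, with a log2 fold change of 0.04 on day 0 (95% interval -0.25 to 0.32) and 0.07 on day 4 (95% interval -0.21 to 0.36), and the latter turned to -0.03 when each library was scaled to the same total. Its change from day 0 to day 4 was 0.45 in WT and 0.49 in CTCF-K20R on the log2 scale (adjusted p = 0.0317 and 0.00615, limma), under the fold minimum. Junos overlaps Jun on the opposite strand, and since the use of strand in the counting is not given in the sources used here, reads of the pair cannot be told apart.

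Ier3, an immediate early gene with a role in cell survival, moved the other way from Fos and Egr1 on day 4. It had 454.6 and 462.1 normalized counts in WT mESCs and 695.1 and 596.2 in CTCF-K20R mESCs. In WT EBs it had 95.7 and 100.3, and in CTCF-K20R EBs 627.1 and 598.4. WT EBs were the only low group, and CTCF-K20R EBs overlapped CTCF-K20R mESCs. The log2 fold change of CTCF-K20R against WT was 0.49 on day 0, which did not pass (adjusted p = 0.0637, limma, 95% interval 0.16 to 0.82), and 2.63 on day 4 (standard error 0.132, adjusted p = 0.000138). The difference between these was 2.14 (adjusted p = 0.00139). Between the days Ier3 fell by 2.21 on the log2 scale in WT, and its change in CTCF-K20R was -0.07 (95% interval -0.34 to 0.20).

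Fos and Jun are partners in AP-1. The sequences before their start sites are shown, with that of Dusp6 for the phosphatases described next. They come from the reference genome and stand for both genotypes alike, and their part in the genotype differences was not tested. Of the 10 genes, Dusp4 and Etv4 had no entry in the RefSeq promoter table (GRCm38.p6). Egr1 and Spry4, which share a chromosome, were left out by choice. For the remaining 6, the 250 bases before the start site were read. Both strands were searched for TGACG, known from sites of CREB factors, and for TGACATCA, known from sites of AP-1 and its relatives. They were also searched for the AP-1 site written as TGANTCA, for the SP factor site written as GGGCGG and for the start signal TATAAA. The ETS site was written as CCGGAAG and the EGR site as GCGNGGGCG, and the CArG box of SRF was searched too. Capitals mark each match, CCGCCC being GGGCGG on the other strand. The windows lie at chr12:85473640-85473889 on the + strand (Fos), chr4:95052223-95052472 on the - strand (Jun) and chr10:99262981-99263230 on the + strand (Dusp6).
Fos: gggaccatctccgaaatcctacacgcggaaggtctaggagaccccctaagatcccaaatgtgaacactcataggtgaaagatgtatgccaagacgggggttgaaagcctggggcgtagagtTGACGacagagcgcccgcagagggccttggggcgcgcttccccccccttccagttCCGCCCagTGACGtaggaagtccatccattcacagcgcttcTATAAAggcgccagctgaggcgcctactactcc
Jun: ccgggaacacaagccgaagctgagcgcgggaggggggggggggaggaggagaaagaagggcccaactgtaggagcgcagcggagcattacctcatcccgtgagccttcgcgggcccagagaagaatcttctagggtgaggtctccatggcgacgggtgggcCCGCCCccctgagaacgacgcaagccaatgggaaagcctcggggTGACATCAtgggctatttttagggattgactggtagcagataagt
Dusp6: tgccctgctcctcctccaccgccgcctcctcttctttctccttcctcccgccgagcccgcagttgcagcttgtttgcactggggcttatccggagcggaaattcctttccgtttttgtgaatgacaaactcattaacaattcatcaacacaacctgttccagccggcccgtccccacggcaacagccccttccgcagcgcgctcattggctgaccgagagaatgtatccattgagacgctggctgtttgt
Fos held TGACG with its first base 129 and 66 bases before the start, GGGCGG at 74 and TATAAA at 33. Jun held TGACATCA at 45 and GGGCGG at 89, and the Dusp6 window held none of the motifs. Of all 32851 windows in the table, 17.8% held TGACG, 2.93% TGACATCA, 32.7% GGGCGG and 12.4% TATAAA. The ETS site (6.91% of all windows), the EGR site (4.70%), the AP-1 site with a free middle base (6.75%) and the CArG box (1.47%) were in none of the 6 genes' windows. Bases further upstream and the genes left out were not searched, so no gene is shown to lack a site. These matches are a description of letters and not of binding.

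The phosphatase genes Dusp4 and Dusp6 rose in EBs of both genotypes, and the rise was smaller in CTCF-K20R. Dusp4, which encodes a nuclear phosphatase of the MAP kinases, had 61.1 and 62.3 normalized counts in WT mESCs and 63.0 and 62.0 in CTCF-K20R mESCs. It had 6253 and 6245 in WT EBs and 2327 and 2292 in CTCF-K20R EBs. All 4 mESC libraries lay together, and the EB libraries parted by genotype. Its log2 fold change was 0.02 on day 0 (95% interval -0.23 to 0.27) and -1.44 on day 4 (standard error 0.0997, adjusted p = 0.000343, limma), with a difference of -1.45 (adjusted p = 0.00196). The rise from day 0 to day 4 was 6.64 on the log2 scale in WT and 5.19 in CTCF-K20R.

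Dusp6, which encodes a cytoplasmic phosphatase selective for ERK, had 518.0 and 528.9 normalized counts in WT mESCs and 397.2 and 473.8 in CTCF-K20R mESCs. In WT EBs it had 6859 and 6895, and in CTCF-K20R EBs 2426 and 2394. CTCF-K20R was below WT on both days, by less than the test could call on day 0 (log2 fold change -0.27, 95% interval -0.55 to 0.01). On day 4 the log2 fold change was -1.51 (standard error 0.112, adjusted p = 0.000429, limma), and the difference from day 0 was -1.24 (adjusted p = 0.00463). This difference did not pass without CTCF-K20R EB replicate 1 (adjusted p = 0.0736) or replicate 2 (adjusted p = 0.0754). Dusp6 rose by 3.71 on the log2 scale in WT and by 2.47 in CTCF-K20R.

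The Sprouty genes encode inhibitors that act between the receptor and RAF. Spry2 had 635.1 and 646.6 normalized counts in WT mESCs and 674.2 and 641.0 in CTCF-K20R mESCs, which overlapped. It had 2147 and 2178 in WT EBs and 1885 and 1893 in CTCF-K20R EBs. The log2 fold change on day 4 was -0.20 (adjusted p = 0.0725, limma, 95% interval -0.37 to -0.02), which did not pass, and on day 0 it was 0.04 (95% interval -0.14 to 0.21). From mESCs to EBs Spry2 rose by 1.75 (log2) in WT and by 1.52 in CTCF-K20R, and the difference of -0.23 did not pass (adjusted p = 0.138).

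Spry4 parted from Spry2 in the mESCs. It had 83.7 and 77.4 normalized counts in WT mESCs and 459.7 and 471.5 in CTCF-K20R mESCs, which is a log2 difference of 2.52 (standard error 0.092, adjusted p = 0.000743, limma). In EBs it had 1662 and 1653 in WT and 1455 and 1560.04 in CTCF-K20R. The genotypes thus lay far apart on day 0 and close to each other on day 4, where the log2 fold change of -0.14 did not pass (95% interval -0.37 to 0.09). The difference between the days was -2.65 (adjusted p = 0.000284). The rise from day 0 to day 4 was 4.35 on the log2 scale in WT and 1.69 in CTCF-K20R. Gm27369 and Gm27804 overlap Spry4 on the opposite strand, so part of its reads may belong to them.

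Of the ETS factor genes of the PEA3 group, Etv4 parted between the genotypes most in mESCs, where Etv5 did not pass the test. Etv4 had 84.0 and 80.8 normalized counts in WT mESCs and 1234 and 1096 in CTCF-K20R mESCs, which is a log2 difference of 3.80 (standard error 0.104, adjusted p = 0.00069, limma), which lay at the 99.9th percentile of the genes tested. It had 1328 and 1314 in WT EBs and 782.8 and 811.4 in CTCF-K20R EBs, a log2 difference of -0.73 (adjusted p = 0.00393), under the fold minimum. WT mESCs were the only low group, and CTCF-K20R went from above WT to below it between the days, a difference of -4.53 (standard error 0.147, adjusted p = 0.000108). Between the days Etv4 rose by 3.99 (log2) in WT, and in CTCF-K20R its change was -0.54 (adjusted p = 0.00299, under the fold minimum).

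Etv5, the close relative of Etv4, was within a narrow range in the mESC libraries, with 12073 and 11991 normalized counts in WT and 12322 and 12126 in CTCF-K20R (log2 fold change 0.02, 95% interval -0.10 to 0.14). In EBs it had 4029.6 and 4027 in WT and 7559.8 and 8074 in CTCF-K20R. Both EB groups were below the mESCs, WT the more so. The log2 fold change on day 4 was 0.96 (standard error 0.0479, adjusted p = 0.000138, limma), just under the fold minimum, and it was 1.00 and called without CTCF-K20R EB replicate 1. The change from day 0 to day 4 was -1.58 in WT and -0.65 in CTCF-K20R, and the difference of 0.93 had an adjusted p of 0.000865.

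**Figure D2:**
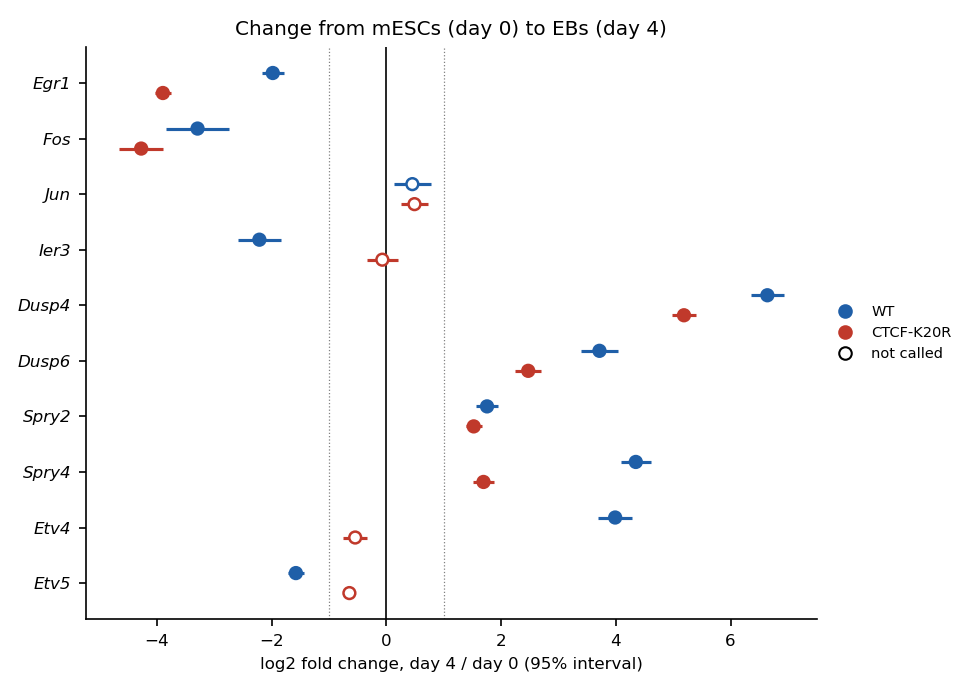
Log2 fold change of each gene from day 0 (mESCs) to day 4 (EBs) in WT and in CTCF-K20R. Points are estimates, bars are 95% intervals, open points were not called and dotted lines mark the fold minimum. The estimates of the Dusp genes, Spry2 and Spry4 lie above 1 in both genotypes, while Etv4 lies at 3.99 in WT and at -0.54 in CTCF-K20R.

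The change from mESCs in medium with a MEK inhibitor to EBs was thus not in 1 direction over the 10 genes. In WT, 5 genes rose (Dusp4, Dusp6, Spry2, Spry4 and Etv4) and 4 fell (Egr1, Fos, Ier3 and Etv5), where 15.6% of all genes tested were called higher and 13.5% lower. The median log2 change was 1.1 for the 10 genes against 0.0085 for all genes tested. In CTCF-K20R, 4 genes rose (Dusp4, Dusp6, Spry2 and Spry4) and 2 fell (Egr1 and Fos), where 14.5% of all genes were called higher and 11.6% lower. Here the median was 0.21 for the 10 genes and 0.0077 for all genes. By the adjusted p alone, without a fold minimum, 10 genes in WT and 9 in CTCF-K20R passed, where 53.8% and 58.5% of all genes did. No day 0 library without PD0325901 was analysed here. The parts of PD0325901, CHIR99021, LIF, the feeder layer, aggregation and the stage of the cells therefore cannot be told apart. In these bulk libraries, fewer cells that express a gene and less RNA per cell also cannot be told apart.

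**Figure D3:**
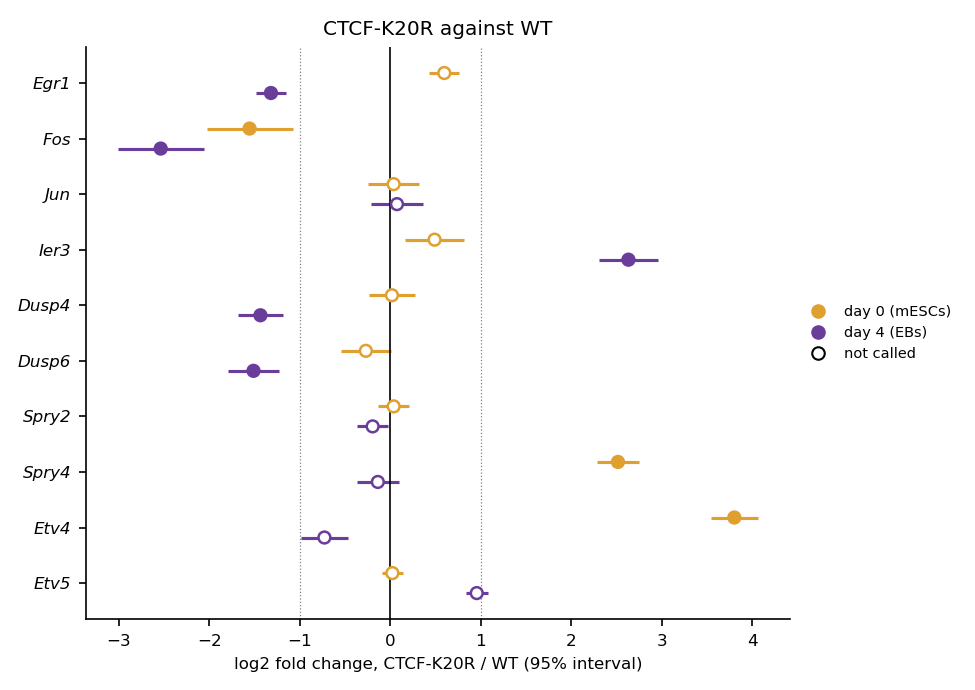
Log2 fold change of CTCF-K20R against WT for each gene on day 0 and on day 4. Points are estimates, bars are 95% intervals, open points were not called and dotted lines mark the fold minimum. Etv4 (3.80) and Spry4 (2.52) stand apart on day 0, and on day 4 Ier3 (2.63) is on the opposite side from Fos, Dusp6, Dusp4 and Egr1.

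Between the genotypes on day 0, Etv4 and Spry4 were called higher and Fos lower in CTCF-K20R mESCs. That is 2 of 10 genes higher, where 1.19% of all genes were, and 1 of 10 lower, where 2.6% were. The 10 genes had a median of 0.04 and all genes of -0.012 on the log2 scale. By the adjusted p alone 4 of the 10 passed, where 15.4% of all genes did. These day 0 calls rest on few degrees of freedom. Without CTCF-K20R EB replicate 1 or 2 no gene of the whole table was called by limma on day 0 (4500 and 4507 genes had an unadjusted p under 0.05), and Etv4, Spry4 and Fos had an adjusted p of 0.0589 and 0.0588 respectively with the same fold changes. Fos was also lost without CTCF-K20R mESC replicate 1 (adjusted p = 0.0564) or replicate 2 (adjusted p = 0.0573).

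On day 4, Ier3 was called higher and Egr1, Fos, Dusp4 and Dusp6 lower in CTCF-K20R EBs. That is 1 of 10 genes higher, where 6.89% of all genes were, and 4 of 10 lower, where 8.65% were. The 10 genes had a median of -0.46 and all genes of 0.0087 on the log2 scale. By the adjusted p alone 7 of the 10 passed, where 40.1% of all genes did. For the difference between the genotype effects of both days, 5 of 10 genes were called lower (Egr1, Dusp4, Dusp6, Spry4 and Etv4), where 6.04% of all genes were, and 1 of 10 (Ier3) was called higher, where 6.84% were. The median of this difference was -1.11 for the 10 genes and 0.016 for all genes, and by the adjusted p alone 8 of the 10 passed, where 26.6% of all genes did. This difference and the genotype effects share samples with the changes between days, so they are not separate lines of evidence.

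The relatives Etv4 and Etv5, Dusp4 and Dusp6, and Spry2 and Spry4 were also compared within each library, per length of the longest coding transcript. Etv4 made up 1.14% and 1.11% of the summed Etv4 and Etv5 level per kb in WT mESCs and 14.3% and 13.0% in CTCF-K20R mESCs. In EBs its share was 35.4% and 35.1% in WT and 14.7% and 14.3% in CTCF-K20R, so the CTCF-K20R libraries of both days were close to each other and lay between the WT groups. Dusp4 made up 10.7% of Dusp4 and Dusp6 in both WT mESC libraries and 13.9% and 11.8% in CTCF-K20R mESCs. In EBs, the share of Dusp4 was 48.2% and 48.0% in WT and 49.5% and 49.4% in CTCF-K20R, so both genes were lower in CTCF-K20R by nearly the same factor. The share of Spry4 in Spry2 and Spry4 was 5.47% and 5.0% in WT mESCs and between 23.0% and 26.6% in the other 6 libraries. These shares do not depend on how libraries are scaled to each other, and they carry no test.

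**Figure D4:**
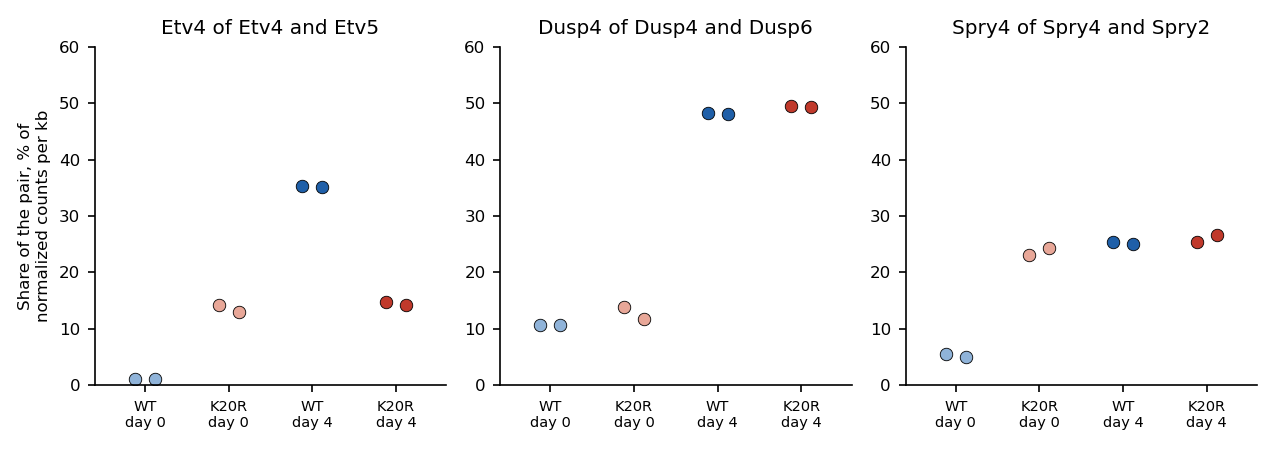
Share of Etv4, Dusp4 and Spry4 in the summed level per kb of each pair of relatives, in percent, for each library. The share of Etv4 is 1.11% to 1.14% in WT mESCs and 35.1% to 35.4% in WT EBs, with all CTCF-K20R libraries between 13.0% and 14.7%.

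Ranked per kb, Etv5 had the highest level of the 10 genes in both mESC groups and in CTCF-K20R EBs, with a mean of 3027, 3075 and 1967 normalized counts per kb. In WT EBs Dusp6 and Dusp4 led with 2460 and 2281, ahead of Spry2 at 1036 and Etv5 at 1013. The lowest gene was Spry4 in WT mESCs (16.9 per kb), Dusp4 in CTCF-K20R mESCs (22.8), Ier3 in WT EBs (86.6) and Fos in CTCF-K20R EBs (27.0). Neighbours in the order whose libraries overlapped were Ier3 and Fos, and Fos and Etv4, in CTCF-K20R mESCs, and Etv4 and Spry4 in CTCF-K20R EBs. All other neighbours lay apart, although in WT the libraries of a pair show too little spread to judge this by. The order rests on 1 transcript length per gene.

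The pattern over the 4 group means was also compared with that of 11060 tested genes with a mean of at least 100, by the root mean square difference of centred log2 values. The nearest to Egr1 were Oas1a (0.108), Pdgfa (0.153) and Cpne5 (0.192), and to Dusp4 they were Stard13 (0.107), Rxrg (0.206) and Wnt3 (0.272). Dusp6 was nearest to Cxx1a (0.0714), Sema4c (0.139) and Slc16a10 (0.17), and Ier3 to Sh2d5 (0.153), Foxd3 (0.234) and Pla2g10 (0.246). Etv4 was nearest to RP24-181G14.2 (0.764), Baz1a (0.797) and Spry4 (0.82). Spry4 was thus among the 3 nearest genes to Etv4, while the nearest to Spry4 were Klhl23 (0.347), Nkd1 (0.379) and Pon2 (0.454). For Fos the nearest were Dmgdh (0.368), Fkbp6 (0.393) and Prkca (0.397). For Jun (Eif1ax, AI837181 and Scyl2), Spry2 (Zfp334, Ogfr and Cnppd1) and Etv5 (Gm10330, Fads6 and Stoml1) the nearest genes were at 0.0119 to 0.0681. The values were centred but not scaled, so genes with small changes find near neighbours more readily than genes with large ones. Distances therefore cannot be compared between members. With only 4 means per gene, likeness is a description.

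The 10 genes lie on 9 chromosomes of GRCm38 (GENCODE vM21), with Egr1 and Spry4 on the same one. Within 5 Mb of each, the median log2 fold change of the 17 to 213 neighbouring genes tested was between -0.27 (around Dusp6) and 0.14 (around Jun) on day 4 and between -0.057 (around Ier3) and 0.053 (around Jun) on day 0. These medians were smaller than the change of each gene called in the same comparison. Etv4 lies on chromosome 11 from 101769742 to 101785371, and the 213 genes around it had a median of -0.013 on day 0. Dusp6 lies on chromosome 10 from 99263231 to 99267489, Dusp4 on chromosome 8 from 34807297 to 34819894, Ier3 on chromosome 17 from 35821684 to 35822923 and Fos on chromosome 12 from 85473890 to 85477273.

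Upstream of ERK, some FGF ligands and receptors were called between the genotypes in EBs. Of 12 genes tested (of 13 found), 1 was higher and 3 were lower in CTCF-K20R EBs, with a median of -0.68. The shares of all genes tested, for this list and those below, were 6.89% called higher and 8.65% lower on day 4. For day 0 these shares were 1.19% and 2.6%. On day 0 limma called none, and 3 of the 12 had an unadjusted p under 0.05. Fgf4, the ligand that mESCs make themselves, had 341.0 and 355.1 normalized counts in WT EBs against 899.7 and 934.3 in CTCF-K20R EBs (log2 fold change 1.39, adjusted p = 7.42e-05). Fgf10 and Fgf3 had log2 fold changes of -6.25 and -5.54, and the receptor-like gene Fgfrl1 of -1.13 (adjusted p = 0.0105). Fgf10 went from 1267 and 1270.2 in WT EBs to 7.82 and 30.3 in CTCF-K20R EBs. Fgf8, a ligand of the primitive streak, had 1956 and 1925 in WT EBs and 718.9 and 764.8 in CTCF-K20R EBs. Its log2 fold change of -1.39 (standard error 0.454) did not pass (adjusted p = 0.059, limma). That error also holds the spread of the CTCF-K20R mESC pair, which was low at 5.22 and 12.2, so this does not show equal levels in EBs. Fgf5, a ligand of the epiblast, had 3765 and 3753 in WT EBs and 3205 and 3309 in CTCF-K20R EBs, against at most 3.76 in mESCs.

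Of 18 genes of the cascade itself, limma called 2 higher and none lower in CTCF-K20R EBs, where 3 were lower at an unadjusted p under 0.05, and the median was 0.028. Gab1, an adaptor between receptor and RAS, had a log2 fold change of 1.53 (adjusted p = 2.53e-05, limma). Sos2, a RAS exchange factor, was the 1 gene of this list called on day 0, with a log2 fold change of 1.33 (adjusted p = 0.0081). Of 14 other ETS and SRF factors, only Elk3 was called on day 4 (log2 fold change -1.73, adjusted p = 0.00301). The median of the 14 was -0.29, and 7 were lower and 2 higher at an unadjusted p under 0.05 (limma). On day 0 limma called none of the 14, and 2 had an unadjusted p under 0.05.

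Of 20 other immediate early genes, 4 were higher and 4 lower in CTCF-K20R EBs, where 6.89% and 8.65% of all genes were. Their median was -0.0042 (log2). The genes called higher were Ctgf (2.98), Klf2 (2.53), Jund (1.2) and Zfp36 (1.02). Those called lower were Ier5 (-1.17), Atf3 (-1.11) and the Egr1 relatives Egr2 (-3.99) and Egr3 (-4.06). Zfp36, Atf3, Egr2 and Egr3 are named outside the rule for named genes, after their values were seen. Egr2 had 134.0 and 130.4 normalized counts in WT EBs against 11.8 and 4.48 in CTCF-K20R EBs, and Egr3 had 144.8 and 146.5 against 7.0 and 8.63. On day 0 only Cyr61 was called (log2 fold change 1.18, adjusted p = 0.00247, limma). Between the days Fosb, a relative of Fos, had log2 changes of -3.08 in WT and -3.12 in CTCF-K20R, and Fosl2 of 3.64 and 4.12, all called.

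Of 14 other feedback inhibitors, 1 was higher and 3 were lower in CTCF-K20R EBs, where 6.89% and 8.65% of all genes were. Their median was -0.19 (log2). On day 0 limma called none, and 5 had an unadjusted p under 0.05. Dusp5, a nuclear phosphatase of ERK, had 1080.2 and 1071 normalized counts in WT EBs against 322.6 and 278.5 in CTCF-K20R EBs, a log2 difference of -1.84 (adjusted p = 0.000831, limma). Dusp9, also a phosphatase, had a log2 fold change of -1.30 and Spred1, which acts with the RAS inhibitor NF1, of -1.14. Spry1, the relative of Spry2 and Spry4, was higher, with 455.6 and 446.9 in WT EBs and 1000.6 and 1041 in CTCF-K20R EBs (log2 fold change 1.18, adjusted p = 0.00126). From day 0 to day 4, 6 of the 14 rose in WT and 1 fell, where 15.6% of all genes rose and 13.5% fell. In CTCF-K20R 6 rose and none fell, where 14.5% of all genes rose and 11.6% fell. Spred3, Dusp5 and Il17rd were among those that rose in both genotypes.

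The 4 genes Phlda1, Ccnd1, Epha2 and Epha4, which together with several of the 10 genes make up a published score of MAPK activity, were all lower in CTCF-K20R EBs. Epha4 and Phlda1 were called lower, with log2 fold changes of -3.56 and -1.35, and Ccnd1 (-0.64, adjusted p = 0.00147, limma) and Epha2 (-0.34, adjusted p = 0.0101) were under the fold minimum. Epha4 had 1787 and 1818 normalized counts in WT EBs against 137.1 and 167.9 in CTCF-K20R EBs. None of the 4 was called on day 0, where 2 had an unadjusted p under 0.05, namely Ccnd1 (-0.29) and Epha2 (0.27), with adjusted p-values of 0.0447 and 0.0461 (limma) at changes under the fold minimum.

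**Figure D5:**
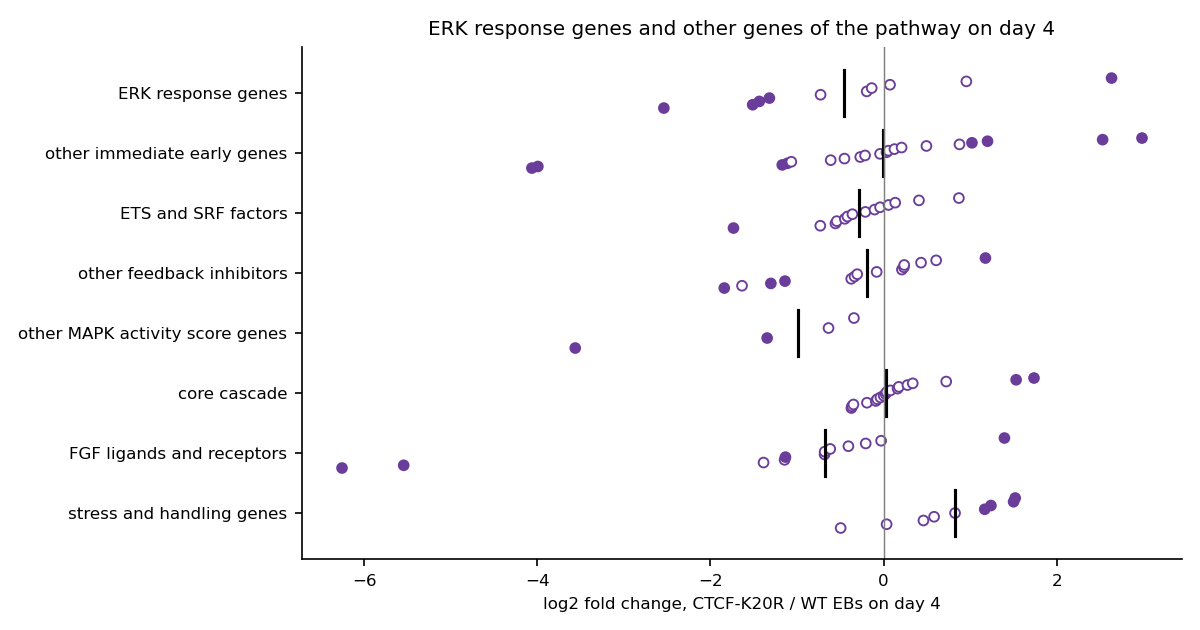
Log2 fold change of CTCF-K20R against WT EBs on day 4 for the 10 ERK response genes and for the other lists of the pathway, with stress and handling genes below. Each point is a gene, filled points were called, and black lines are list medians. The median is -0.46 for the 10 genes, -0.0042 for the other immediate early genes and -0.99 for the other score genes.

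Markers of cell types moved with the day 4 differences, where 6.89% of all genes were called higher and 8.65% lower. The primitive streak mesoderm list (5 genes, all called lower) summed to 37005 to 37145 normalized counts in WT EBs and 2358 to 2464 in CTCF-K20R EBs, and Mesp1 was the gene at or under the limit in the latter. The definitive endoderm list (3 genes, all called lower) summed to 12027 to 12029 and 89.9 to 97.5. The mESC list (6 genes, 4 higher and 1 lower) summed to 15404 to 15511 in WT EBs and 31201 to 31927 in CTCF-K20R EBs. Most of both sums was Pou5f1, which was not called, with 12595 and 12696 in WT and 21940 and 21590 in CTCF-K20R EBs. Klf4 was the gene called lower. The formative epiblast list (4 genes, 2 higher) summed to 22339 to 22351 in WT EBs and 46396 to 47846 in CTCF-K20R EBs. Most of that was Dnmt3b, with 14624 and 14620 in WT and 36756 and 38180 in CTCF-K20R EBs. Pou3f1 was the other gene called higher. Fgf5 and Otx2 were slightly lower in CTCF-K20R EBs and not called, Otx2 with 3709 and 3709 against 3402 and 3436. The neural ectoderm list (3 genes, 2 higher) summed to 1901 to 1935 and 2645 to 2677. The part of these cell types in the differences of the 10 genes on day 4 was not tested.

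On day 0, the mESC list summed to 90125 to 91438 in all 4 libraries, with none of its 6 genes called by limma and 1 at an unadjusted p under 0.05. The primitive streak mesoderm list summed to 413.1 to 418.8 in WT and 519.2 to 531.4 in CTCF-K20R mESCs. Of its genes, T was called lower, with 73.2 and 72.6 in WT against 25.1 and 24.1 in CTCF-K20R (log2 fold change -1.53, adjusted p = 0.00291, limma), while Eomes had a log2 fold change of 0.51 (adjusted p = 0.0102), under the fold minimum. The formative epiblast list summed to 4114 to 4207 in WT and 3638 to 3656 in CTCF-K20R mESCs, with none of its 4 genes called by limma and 2 at an unadjusted p under 0.05. Otx2 was lower among them, with 847.6 and 873.5 in WT against 481.2 and 479.6 in CTCF-K20R (log2 fold change -0.84, adjusted p = 0.00161). The neural ectoderm list summed to 869.8 to 931.6 and the definitive endoderm list to at most 13.1 in the mESC libraries. The feeder fibroblast list summed to 504.3 to 515.4 in WT and 152.6 to 166.6 in CTCF-K20R mESCs. Thy1 made up most of it, with 465.4 and 458.5 in WT and 104.2 and 103.3 in CTCF-K20R. Dcn and Postn were at 0 and Col3a1 and Lum at no more than 1.51 in every mESC library. Col1a1 went the other way from Thy1, with 17.4 and 16.0 in WT mESCs against 34.3 and 32.2 in CTCF-K20R mESCs. Col1a2 had 28.1 and 26.0 against 21.6 and 12.2, and Acta2 4.51 and 3.77 against 6.44 and 2.20. The list sum is thus mainly a reading of Thy1. In EBs the fibroblast list summed to 583.9 to 601.1 in WT and 754.8 to 845.2 in CTCF-K20R. The part of fibroblast RNA, and of the cells that express T and Otx2, in the day 0 differences of the 10 genes was not tested. The visceral endoderm list summed to at most 46.1 in any library.

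Immediate early genes can also rise while cells are handled, so stress genes were read beside them. Of 9 such genes, limma called 4 higher and none lower in CTCF-K20R EBs, where 1 was lower at an unadjusted p under 0.05, and the median was 0.82. The shares over all genes were 6.89% called higher and 8.65% lower. On day 0 none was called, 5 had an unadjusted p under 0.05, and the median was -0.18. Those called were Hmox1 (1.5), Hspa1b (1.24), Gadd45a (1.17) and, outside the rule for named genes, Hspa1a (1.52). Hmox1 had 968.5 and 951.0 normalized counts in WT EBs against 2841 and 2599 in CTCF-K20R EBs. The summed level of all 9 genes was 18654 to 18713 normalized counts in WT EBs and 16821 to 17762 in CTCF-K20R EBs, and 23607 to 24744 in mESCs. Most of it in EBs was Hspa5, also outside that rule, with 14852 and 14858 in WT and 10832 and 10236 in CTCF-K20R, so the sum and the called genes went opposite ways. The part of handling in the values of Egr1, Fos and Ier3 was not tested.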

How the data were processed

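The RNA-seq data held 2 libraries for each of WT and CTCF-K20R mESCs (day 0) and EBs (day 4). The authors trimmed reads with Trim Galore, quantified them on mm10 with Salmon, collapsed transcripts to genes with tximport and used DESeq2 to scale the counts. What they deposited is a signal, namely the normalized count of each gene in each library. The annotation release and the use of strand are not given in the sources used here. Whole reads could not be recovered, since only 53.46% to 67.44% of low values lay within 0.1 of a whole step, so no count test was run. All 8 value columns were matched to samples by name.

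Values were tested as log2(value + 1), which understates the changes of low genes, by linear models with a trended variance prior, two-sided, in limma 3.58.1 (R 4.3.3). Genes with a mean of at least 10 were kept, each group had a mean, the WT pairs were averaged after the replicate comparison, and there were 2 residual and 3.51 prior degrees of freedom. The fit was tested on simulated data. Python 3.11.15 read the annotation (GENCODE vM21, GRCm38) and drew the plots. The replicate numbers of CTCF-K20R libraries did not deviate together between days, so no block was used.

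The 10 genes, the gene lists and the tests were chosen with earlier results of these data known. The genes named are the 10 members, Ctcf, Phlda1, Ccnd1, Epha2, Epha4, Fgf4, Fgf5 and Fgf8, and from each list up to 4 called genes per comparison with the largest change and at least 100 normalized counts on average, with exceptions stated where they occur. A gene that this rule named in the cascade list is not reported here. For likeness, the 3 nearest genes to each member were named. Marker lists were read as levels. The alternatives tried were 21 settings of averaging, replicate block, pseudocount, filter, scaling, variance model, thresholds, groups fitted and libraries left out.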

Additional observations from a re-analysis of the deposited data

Results flagged for a closer look

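For 8 of the 10 genes, the effect of CTCF-K20R against WT differed between day 0 and day 4 by a test of that difference (limma interaction term, adjusted p under 0.05 over 15767 genes), as it did for 26.6% of all genes tested. The effect on day 4 minus that on day 0 was -4.53 on the log2 scale for Etv4 (adjusted p = 0.000108), which was higher in both CTCF-K20R mESC libraries and lower in both CTCF-K20R EB libraries than in WT. It was -2.65 for Spry4 (adjusted p = 0.000284) and -1.92 for Egr1 (adjusted p = 0.000284), both also higher in 2 of 2 CTCF-K20R libraries on day 0 and lower in 2 of 2 on day 4. The day 4 effect of Spry4 alone did not pass, however (log2 fold change -0.14, adjusted p = 0.284, limma), so a reversal is not shown for it. For Dusp4 it was -1.45 (adjusted p = 0.00196) and for Dusp6 -1.24 (adjusted p = 0.00463), which was lost without either CTCF-K20R EB library (adjusted p = 0.0736 and 0.0754). For Ier3 it was 2.14 (adjusted p = 0.00139) and for Etv5 0.93 (adjusted p = 0.000865). For Fos it was -0.98 (adjusted p = 0.0478), with CTCF-K20R lower on both days.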

How the results depend on the processing

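The 21 alternatives gave 1030 values for single genes, of which 997 kept their direction and call, 12 lost the call and 13 gained it. The direction turned in 8, all near 0 and not called. With each library scaled to the same total, which moved the median of all genes on day 4 from 0.0087 to -0.095, these were Jun on day 4 (-0.032) and in the difference between days (-0.046), and Dusp4 (-0.0045) and Etv5 (-8.2e-05) on day 0. After quantile normalization it was Etv5 on day 0 (-0.014). With single libraries left out they were Jun on day 0 (range -0.010 to 0.083), Jun in the difference (range -0.0094 to 0.084) and Ier3 between days in CTCF-K20R (range -0.18 to 0.039), with the turned value without a CTCF-K20R mESC library.

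With single libraries left out, the genes called were 0 to 3 on day 0, 5 to 6 on day 4, 5 to 7 for the difference, 6 in CTCF-K20R between days and 9 in WT between days. The 0 on day 0 arose without CTCF-K20R EB replicate 1 or 2, where limma called no gene of the table and 5 of the 10 had an unadjusted p under 0.05. The fold changes were the same there and 1 residual degree of freedom fewer was left. Fos on day 0 (adjusted p = 0.0713) and Dusp6 in the difference (adjusted p = 0.0518) were also lost without the variance trend. The adjusted p alone gave 7 genes on day 4, 4 on day 0, 8 for the difference, 9 in CTCF-K20R and 10 in WT between days.

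Over all genes, the 598 calls on day 0 became 1348 with all 8 libraries as separate samples, 56 without the variance trend, 146 with only the groups compared, 234 at an adjusted p under 0.01 and 2429 with the adjusted p alone. The split on day 0 was 188 higher and 410 lower, and 235 and 326 after quantile normalization. The larger side turned after quantile normalization on day 4 (1087 higher and 1364 lower became 1448 and 1249) and between days in WT (2464 and 2124 became 2261 and 2477), with each library scaled to the same total for the difference (1079 and 952 became 961 and 1106), with a pseudocount of 10 for the difference (1116 and 1159), and with the adjusted p alone on day 4 (3395 and 2934) and day 0 (1235 and 1194). On day 4, the adjusted p alone gave 6329 calls in place of 2451, and leaving out CTCF-K20R EB replicate 1 gave 1590. For the difference, 2031 calls became 3340 with all 8 libraries, 4200 with the adjusted p alone, 1113 at an adjusted p under 0.01, and 909 and 885 without CTCF-K20R EB replicate 1 and 2. Between days, the adjusted p alone gave 9221 calls in CTCF-K20R in place of 4117 and 8479 in WT in place of 4588.

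The deviations of the CTCF-K20R pairs correlated at -0.04 between days, so no common deviation by replicate number was seen. Whether samples with the same replicate number shared a culture or a batch cannot be told from this value. With the replicate block, 5 genes were called on day 4, 3 on day 0, 6 for the difference, and 6 and 9 between days, as without it.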

Other observations

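Several other genes of the pathway changed between the days by different amounts in the genotypes. The values that follow are the genotype effect on day 4 minus that on day 0, on the log2 scale, for the called genes of the lists that the rule names (limma). Of the FGF ligands and receptors, Fgf3 was at -6.34 (adjusted p = 0.00581), Fgf10 at -6.05 (adjusted p = 0.014), Fgfrl1 at -1.34 (adjusted p = 0.0283) and Fgf4 at 1.17 (adjusted p = 0.000696). Of the score genes, Epha4 was at -3.51 (adjusted p = 0.000305) and Phlda1 at -1.92 (adjusted p = 0.0119). Of the feedback inhibitors, Dusp5 was at -1.51 (adjusted p = 0.0089), Spred1 at -1.43 (adjusted p = 0.000578) and Dusp9 at -1.19 (adjusted p = 0.00822), and Spry1 was on the other side at 1.86 (adjusted p = 0.00166). Of the immediate early genes, Ctgf was at 2.12 (adjusted p = 0.00341), Zfp36 at 1.72 (adjusted p = 0.0172), Klf2 at 1.69 (adjusted p = 0.00164) and Cyr61, which was called higher in CTCF-K20R mESCs, at -1.64 (adjusted p = 0.00124). The adaptor Gab1 was at 1.18 (adjusted p = 0.00024), the exchange factor Sos2 at -1.40 (adjusted p = 0.0112) and the ETS factor Elk3 at -1.36 (adjusted p = 0.0323). Of the stress genes, Gadd45a was at 2.07 (adjusted p = 0.00268) and Hspa1b at 1.53 (adjusted p = 0.00987). Between the days, Gab1 fell by 2.09 (log2) in WT and Ets1 rose by 3.11 in WT and by 3.37 in CTCF-K20R. Klf2, a gene of the naive state, fell by 5.92 (log2) in WT and fell by 4.23 in CTCF-K20R, and all of these changes were called.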
